A study of Mus musculus with 6 samples.

Results

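The chemokines and their receptors were followed in dorsal skin of mice that lack the clock gene *Bmal1*. The members were taken by gene symbol alone, as every probe set that the platform annotation pairs with a CC, CXC, CX3C or XC chemokine or with a conventional or atypical chemokine receptor. This gave 68 of the 23410 probe sets with a gene symbol that were tested. They stand for 56 genes, each with its own probe set, and for 2 groups of near-identical genes, *Ccl21a* to *Ccl21d* and *Ccl27a* with *Ccl27b*, whose probe sets list several genes at once, so that 58 members are counted once each.

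RNA of dorsal skin was measured in 3 Bmal1-/- mice and 3 Bmal1+/- littermates, with 1 array for each mouse (Affymetrix Mouse Gene 1.0 ST, which reads probes along the whole transcript). Per the methods the *Bmal1* mice were on a C57BL/6J background, and the labels stage all 6 skins as telogen, when hair follicles rest. No mouse was wild type, since the controls carry 1 mutated copy, and the mutation is carried by every cell of the animal and not by the skin alone. The age label is postnatal day 22 for all 6 mice, but another label of Bmal1+/- replicate 1 gives day 23, and that mouse is the only male. The time of day at which these 6 skins were taken is not stated apart from the study's time-course protocol. The sources used here do not say how the littermates were spread over litters.

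Each probe set has a deposited intensity on a linear scale, and the array medians ran from 219 to 235.5. The tissue label was met: the summed intensity of 6 keratinocyte markers lay between 48185 and 56590 in all 6 mice, that of 6 fibroblast markers between 61786 and 74248 and that of 4 striated muscle markers between 43676 and 54670, so muscle was part of the sample. As a check of the clock, *Nr1d1*, a direct target of CLOCK/BMAL1, had intensities of 1778 ± 188 and 195 ± 46.9 (mean ± SD, n = 3 mice each, Bmal1+/- given first here and below), a log2 fold change of -3.11 (adjusted p = 2.0e-05 from limma). *Bmal1* itself, listed as *Arntl*, was at 348 ± 20.9 and 614 ± 47.3, and the sources used here do not give the position of its probes relative to the mutated part.

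Chemokines are small secreted proteins that bind to matrix sugars and form gradients along which leukocytes move. They act on membrane receptors that couple to inhibitory G proteins, while the atypical receptors bind chemokines without that signal and clear or store them. Some ligands are made all the time and set where resident cells live: in skin, keratinocytes make CCL27 and CXCL14, and lymphatic vessels make CCL21, which together with CCL19 guides dendritic cells and T cells that carry CCR7. Others are induced in inflammation, and bring in monocytes through CCR2, neutrophils through CXCR2 and T cells through CXCR3.

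No member passed the test. At an adjusted p under 0.05 from limma, fitted over all 23410 probe sets, 0 of the 68 member probe sets were called in either direction, while 0.231% of all probe sets were (0.132% lower and 0.0982% higher in Bmal1-/- skin). At an unadjusted p under 0.05, 10 of the 58 members were reached (17.2%), against 8.77% of all probe sets. Of these, 3 had lower values in Bmal1-/- skin (*Ccl19*, *Ccl8* and *Ackr3*) and 7 had higher values (*Cxcl14*, the *Ccl27* probe sets, *Cx3cr1*, *Cxcl3*, *Ccl20*, *Ccl4* and *Ccl26*), where 4.6% and 4.17% of all probe sets were lower and higher. At an unadjusted p under 0.001 from limma, *Cxcl14* and *Ccl19* remained, where 0.649% of all probe sets were reached (0.397% lower and 0.252% higher). The study applied that threshold to p-values of its own test, Cyber-T, and not to limma. A regularised test built after Cyber-T, the study's program, called *Cxcl14* higher and *Ccl19* and *Ccl8* lower at an adjusted p under 0.05, where it called 0.41% of all probe sets higher and 0.756% lower. In 12 of the 58 members (20.7%) the values of the 2 genotypes did not overlap, against 14.7% of all probe sets. In 2 of these the Bmal1-/- mice were lower (3.45% against 7.68% of all probe sets) and in 10 higher (17.2% against 6.99%). Members are probe sets read from the same 6 arrays and are not independent of each other, and with 3 mice against 3 an exact permutation test of a single gene cannot go below p = 0.10. In bulk skin, fewer cells of a type and less RNA per cell cannot be told apart.

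**Figure D1:**
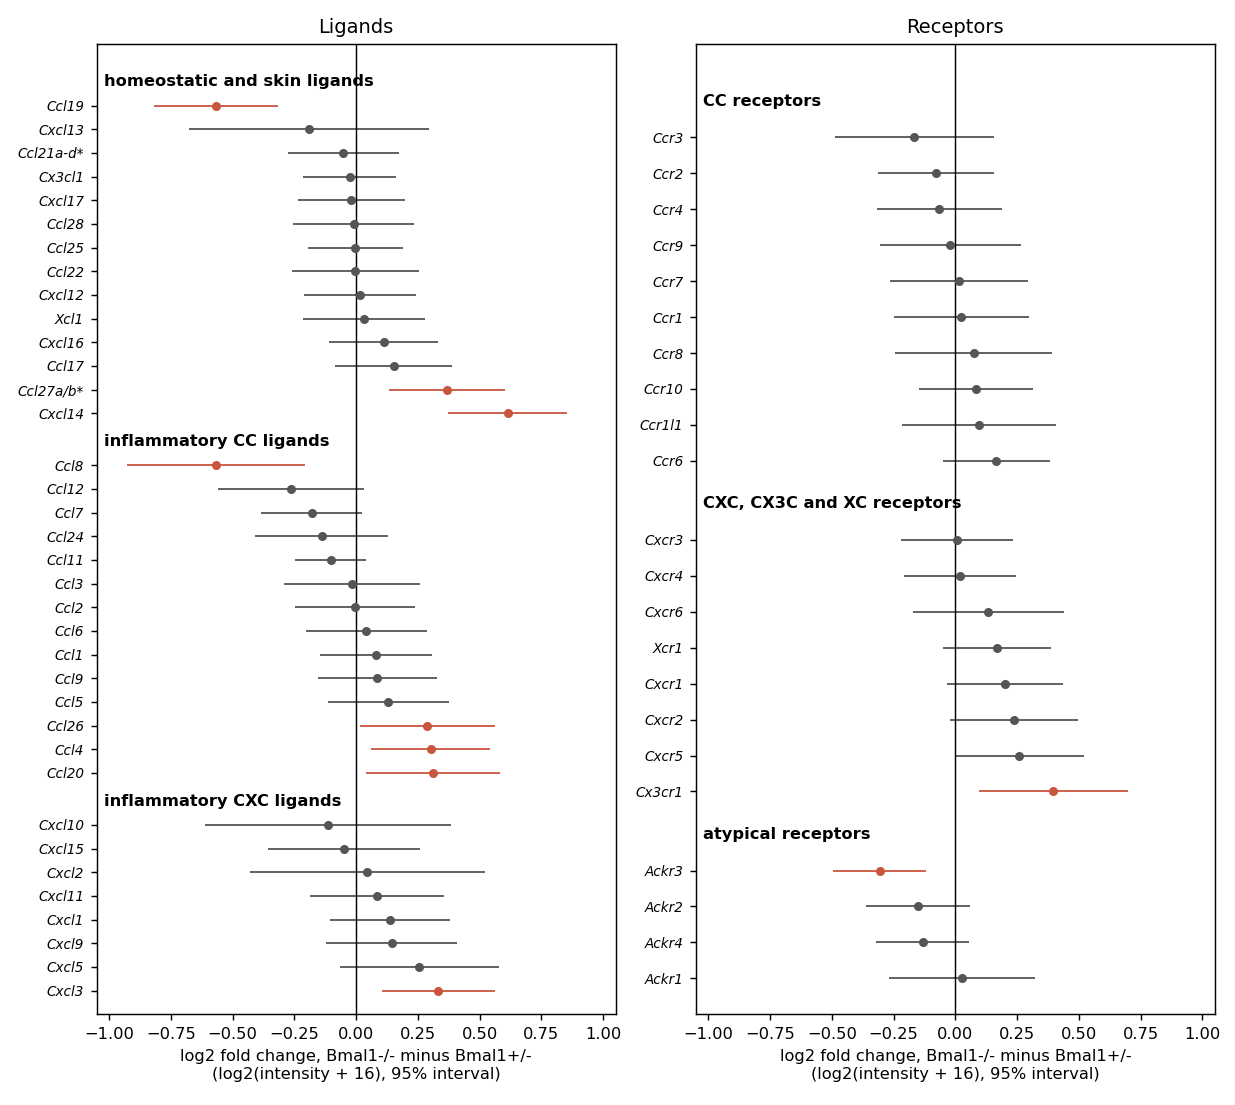
Log2 fold change (Bmal1-/- minus Bmal1+/-, on log2(intensity + 16)) of each of the 58 members with its 95% interval from limma, ligands on the left and receptors on the right, sorted within each role. Red marks the 10 members with an unadjusted p under 0.05, and an asterisk marks probe sets that list several genes. Most intervals cross 0, and *Ccl19*, *Ccl8* and *Cxcl14* are the only members beyond 0.5 in either direction.

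The median log2 fold change was 0.03 over the 58 members and 0.01 over all probe sets. Leaving out 1 mouse at a time moved the members' median between 0.0015 (without Bmal1+/- replicate 2) and 0.091 (without Bmal1-/- replicate 1). For 43 of the 58 members the 95% interval lay within 0.5 of 0 on the log2 scale, and this was so for 20 of 22 receptors and for 23 of 36 ligands. A log2 fold change beyond 0.5 was seen in 3 members, *Ccl19* and *Ccl8* on the lower side and *Cxcl14* on the higher side, against 0.94% of all probe sets (0.534% lower and 0.406% higher). A positive log2 fold change was found in 34 of the 58 members (58.6%) and 54.7% of all probe sets, and a negative one in 24 (41.4%) and 45.3%. Without Bmal1-/- replicate 1, 14 of the 58 members were negative, against 9938 of all 23410 probe sets.

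The stretch of DNA before the start of *Cxcl14*, *Ccl19*, *Ccl8* and *Cxcl3* is shown because the first 3 are those members beyond 0.5, and *Cxcl3* is a member that carries a canonical E-box, the site that CLOCK/BMAL1 binds. Each line gives 250 bases that end before the gene start in RefSeq (build GRCm38.p6), written 5′ to 3′ on the strand of the gene, with motif matches in capitals.
Cxcl14 (- strand, chr13:56296552-56296801): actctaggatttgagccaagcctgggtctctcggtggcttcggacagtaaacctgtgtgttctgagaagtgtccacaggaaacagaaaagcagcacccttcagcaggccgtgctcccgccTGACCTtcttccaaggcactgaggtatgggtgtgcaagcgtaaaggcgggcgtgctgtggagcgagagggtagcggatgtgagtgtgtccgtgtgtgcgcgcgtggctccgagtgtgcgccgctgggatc
Ccl19 (- strand, chr4:42756366-42756615): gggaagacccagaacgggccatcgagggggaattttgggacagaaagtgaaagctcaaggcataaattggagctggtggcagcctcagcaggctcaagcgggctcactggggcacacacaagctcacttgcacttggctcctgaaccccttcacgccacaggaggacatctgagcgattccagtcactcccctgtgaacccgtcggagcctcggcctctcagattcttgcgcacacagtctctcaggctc
Ccl8 (+ strand, chr11:82114935-82115184): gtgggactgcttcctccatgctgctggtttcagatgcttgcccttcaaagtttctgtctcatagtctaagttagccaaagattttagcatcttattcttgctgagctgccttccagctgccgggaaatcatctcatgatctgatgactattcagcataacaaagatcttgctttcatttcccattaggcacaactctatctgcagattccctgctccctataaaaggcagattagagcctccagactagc
Cxcl3 (+ strand, chr5:90785851-90786100): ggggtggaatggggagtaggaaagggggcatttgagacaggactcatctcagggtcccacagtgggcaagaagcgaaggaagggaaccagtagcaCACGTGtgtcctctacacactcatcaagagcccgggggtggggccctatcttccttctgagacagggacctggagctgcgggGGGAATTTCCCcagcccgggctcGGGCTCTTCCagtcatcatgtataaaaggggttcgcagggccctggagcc
The motifs searched on both strands were the E-box CACGTG, its variant CACGTT, the D-box TTATGTAA, the ROR element core AGGTCA and the NF-kB site, which is GGG and TTCC with any 3 bases between them. The window of *Cxcl14* holds 1 ROR core (TGACCT on the strand shown), 130 bases before the start. The window of *Cxcl3* holds an E-box 155 bases before the start and 2 NF-kB stretches, of which the one at 73 bases matches on both strands in overlap and the other lies at 50 bases. The windows of *Ccl19* and *Ccl8* held no match to any of the 5 motifs.

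RefSeq gave 44 such windows for 42 member genes. No window was at hand for *Ccl2*, *Ccl4*, *Ccl5*, *Ccl7*, *Ccl11*, *Ccl24*, *Ccl26*, *Ccr7*, *Ccr10*, *Cxcl5*, *Cxcl11*, *Cxcl16*, *Cxcl17* and *Cxcr5*. The *Ccl21* and *Ccl27* groups were left out too, so none of these genes was searched. An E-box stood in 2 of the 44 (4.55%; *Cxcl3* and *Xcr1*), against 6.02% of all 32851 windows. The variant CACGTT and the D-box stood in 1 window each, both of *Ccr6* (2.27% against 3.85% and 0.819% of all windows). The NF-kB site, which inflammatory signals use, stood in 9 windows (20.5% against 4.65%), those of *Ccl1*, *Ccl9*, *Ccl20*, *Ccr3*, *Ccr6*, *Cxcl1*, *Cxcl2*, *Cxcl3* and *Cxcl10*. The ROR core, a sequence that ROR and REV-ERB receptors bind, stood in 12 windows (27.3% against 14.0%). Those were windows of *Ackr1*, *Ccl3*, *Ccl6*, *Ccl17*, *Ccl20*, *Ccl22*, *Ccl25*, *Ccr6*, *Cxcl9*, *Cxcl13*, *Cxcl14* and *Cxcr2*. The log2 fold changes of these genes had both signs, from -0.19 (*Cxcl13*) to 0.61 (*Cxcl14*). A match describes the letters only.

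Among the constitutive ligands of skin, values of *Cxcl14*, *Ccl27* and *Ccl19* stood apart by genotype. *Cxcl14* (probe set 10409579) encodes a ligand made by resting epithelium. Its intensities were 1152, 1165 and 1545 (Bmal1+/-) against 2060.5, 1829.9 and 1994 (Bmal1-/-). The 3 Bmal1-/- mice were all above the 3 Bmal1+/- mice, of which replicate 3 was nearest to them. The means were 1287 ± 223 and 1961 ± 119, a log2 fold change of 0.61 (standard error, SE, 0.11, 95% interval 0.37 to 0.85, unadjusted p = 0.00024, adjusted p = 0.075 from limma). Leaving out 1 mouse gave log2 fold changes from 0.54 to 0.75 and adjusted p from 0.012 (without Bmal1+/- replicate 3) to 0.23 (without Bmal1-/- replicate 1). The adjusted p was 0.042 when each array was centred on its median and 0.24 when all rows of the array were tested.

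*Ccl27a* and *Ccl27b* encode the keratinocyte chemokine that CCR10 binds, and 3 probe sets list them together with other genes, 2 of them with identical values. The brighter of these (probe set 10504164) had intensities of 2318, 2221 and 3037 (Bmal1+/-) against 3132, 3234 and 3335 (Bmal1-/-). The Bmal1+/- mice reached 3037 and the Bmal1-/- mice began at 3132, so that the gap between the genotypes was narrow. The means were 2525 ± 446 and 3234 ± 102 and the log2 fold change 0.37 (SE 0.10, 95% interval 0.13 to 0.60, unadjusted p = 0.0060, adjusted p = 0.32 from limma). The third probe set gave 0.32. Leaving out 1 mouse gave log2 fold changes from 0.28 (without Bmal1+/- replicate 2) to 0.51 (without Bmal1+/- replicate 3) and adjusted p from limma from 0.032 (without Bmal1+/- replicate 3) to 0.67 (without Bmal1+/- replicate 1). Beside both keratinocyte ligands, the 6 keratinocyte markers summed to 51190 to 56590 in the Bmal1+/- mice and to 48185 to 54246 in the Bmal1-/- mice, with a median log2 fold change of -0.08 and *Lor*, a cornified envelope gene, at 0.17. None of the 6 was called, and the part of keratinocyte content in these results was not tested.

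*Ccl19* had lower values in Bmal1-/- skin. The gene encodes a CCR7 ligand of lymph node stroma and mature dendritic cells, and its probe set of highest mean intensity (10504159) had intensities of 991, 872 and 811 (Bmal1+/-) against 590.5, 695 and 511 (Bmal1-/-). Every Bmal1-/- mouse was below every Bmal1+/- mouse. The means were 891 ± 91.6 and 599 ± 92.1, a log2 fold change of -0.57 (SE 0.11, 95% interval -0.82 to -0.32, unadjusted p = 0.00058, adjusted p = 0.12 from limma). All 5 probe sets that name *Ccl19* gave log2 fold changes between -0.59 and -0.54, with adjusted p from limma between 0.10 and 0.12. Of these, 2 had identical values in every mouse, so the 5 are not separate measurements. RefSeq lists 3 *Ccl19* pseudogenes, so signal from such copies cannot be kept apart. Leaving out 1 mouse gave log2 fold changes from -0.68 to -0.46 and adjusted p from 0.044 (without Bmal1-/- replicate 2, whose value was the highest of its genotype) to 0.32 (without Bmal1+/- replicate 1).

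*Ccl21a* to *Ccl21d*, the other CCR7 ligands, share 4 probe sets with identical values. Their intensities were 2064, 2267 and 2472 (Bmal1+/-) against 1877, 2273 and 2431 (Bmal1-/-), with the lowest value in Bmal1-/- and the highest in Bmal1+/- skin. The means were 2268 ± 204 and 2194 ± 286, and the log2 fold change was -0.05 (95% interval -0.28 to 0.17, adjusted p = 0.91 from limma). Of 4 lymphatic endothelium markers, 2 had a negative and 2 a positive log2 fold change, among them *Pdpn* at -0.20 and *Lyve1* at 0.18, and none was called. Their sum was 2284 to 2446 in the Bmal1+/- mice and 2267 to 2349 in the Bmal1-/- mice. In the 9 Langerhans and dendritic cell markers the sums were 14555 to 15423 and 13303 to 16574, and none was called.

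*Cxcl12*, the ligand of CXCR4 that holds stem cells and leukocytes in stroma, had intensities of 894, 928 and 1027 (Bmal1+/-) against 883, 884 and 1133 (Bmal1-/-). The ranges overlapped, with Bmal1-/- replicate 3 the highest mouse. The log2 fold change was 0.02 (95% interval -0.21 to 0.24, adjusted p = 0.97 from limma). *Ccl17* and *Ccl22*, which draw T cells through CCR4, had log2 fold changes of 0.15 and -0.0031, and *Cx3cl1*, *Cxcl16*, *Cxcl17*, *Ccl28* and *Xcl1* lay between -0.03 and 0.11. *Cxcl13*, which draws B cells, was at -0.19, with intensities of 167, 133 and 118 (Bmal1+/-) against 149, 75.9 and 145 (Bmal1-/-). Bmal1-/- replicate 2 was the lowest mouse, and without it the log2 fold change was 0.085. The 2 probe sets of *Ccl25* differed in sign (-0.0036 and 0.12). Of the 14 members in this group, 8 had a negative and 6 a positive log2 fold change, and the median was -0.0033 (-0.033 to 0.070 on leaving out 1 mouse).

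**Figure D2:**
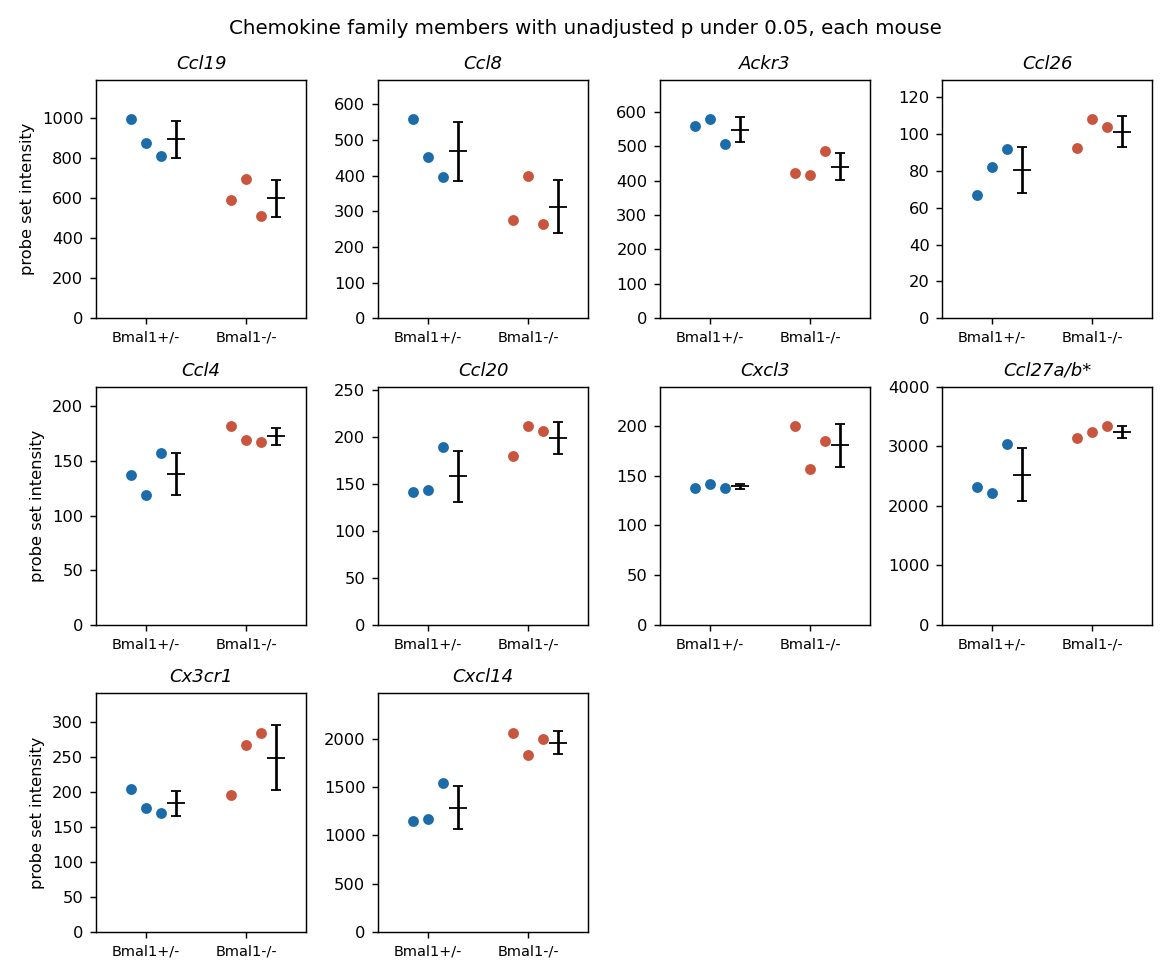
Points give the intensity in each mouse and the dash and bar the genotype mean and SD (n = 3) for the 10 members with an unadjusted p under 0.05, each panel from 0 on a linear axis. The Bmal1-/- points of *Cxcl14* lie above, and those of *Ccl19* and *Ackr3* below, all Bmal1+/- points, while those of *Ccl8* overlap.

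Among the inflammatory CC ligands, *Ccl8*, a ligand of CCR8 made by macrophages and fibroblasts, had lower values in Bmal1-/- skin. Its intensities (probe set 10379535) were 558, 451 and 396 (Bmal1+/-) against 275, 399 and 265 (Bmal1-/-). Bmal1-/- replicate 2, at 399, was above the lowest Bmal1+/- mouse, so that the genotypes overlapped. The means were 468 ± 82.2 and 313 ± 74.4 and the log2 fold change -0.57 (SE 0.16, 95% interval -0.93 to -0.21, unadjusted p = 0.0060, adjusted p = 0.32 from limma). Leaving out 1 mouse gave log2 fold changes from -0.75 to -0.44 and adjusted p from 0.093 (without Bmal1-/- replicate 2) to 0.67 (without Bmal1+/- replicate 1). Of 9 measured macrophage markers, 8 had a negative log2 fold change and none was called, with *Mrc1* at -0.15. The sum of the 9 was 12282 to 13108 in the Bmal1+/- mice and 10105, 12325 and 12607 in Bmal1-/- replicates 1, 2 and 3. Bmal1-/- replicate 1 was the only mouse of its genotype below the Bmal1+/- range. Of 6 fibroblast markers, 5 had a negative log2 fold change, with a median of -0.14, and none was called. *Pf4*, a CXC chemokine of platelets and tissue macrophages whose symbol lies outside the rule, had means of 846 ± 72.3 and 717 ± 53.3 (log2 fold change -0.23, adjusted p = 0.45 from limma). Whether macrophage or fibroblast content had a part in the difference in *Ccl8* was not tested.

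*Ccl8* lies in a run of CC ligand genes on chromosome 11, in the RefSeq order *Ccl2*, *Ccl7*, *Ccl11*, *Ccl12*, *Ccl8* and *Ccl1*. The first 5 of these had negative log2 fold changes, and their median of -0.18 leaves out *Ccl1*, which was positive. That of *Ccl12* was -0.26 and that of *Ccl7* was -0.18. That of *Ccl2* was -0.0039 and turned positive without Bmal1+/- replicate 1 or 3 and without Bmal1-/- replicate 1 or 3. *Ccl1* had 0.08. *Ccl2*, the main ligand of CCR2, had intensities of 254, 192 and 242 (Bmal1+/-) against 216, 242 and 224 (Bmal1-/-). All Bmal1-/- values lay within the Bmal1+/- range. The means were 229 ± 32.8 and 227 ± 13.0, with a 95% interval of -0.25 to 0.24 for the log2 fold change and an adjusted p of 0.996 from limma. *Ccl11*, eotaxin, which calls in eosinophils through CCR3, had intensities of 930.4, 941 and 907 (Bmal1+/-) against 819, 848 and 921 (Bmal1-/-) and a log2 fold change of -0.10 (95% interval -0.25 to 0.04, adjusted p = 0.68 from limma). The 4 eosinophil markers summed to 507 to 642 in the Bmal1+/- mice and to 584 to 684 in the Bmal1-/- mice. *Ccl24*, a further eotaxin, had a log2 fold change of -0.14.

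The other run on the same chromosome, *Ccl5*, *Ccl9*, *Ccl6*, *Ccl3* and *Ccl4*, had 4 of 5 positive log2 fold changes and a median of 0.087. *Ccl4*, a chemokine of activated macrophages and lymphocytes, had intensities of 137, 119 and 157 (Bmal1+/-) against 182, 169 and 167 (Bmal1-/-). All Bmal1-/- values were above all Bmal1+/- values. Its log2 fold change was 0.30 (SE 0.11, 95% interval 0.06 to 0.54, unadjusted p = 0.020, adjusted p = 0.45 from limma). *Ccl6* and *Ccl9*, mouse ligands of CCR1, had means of 1349 ± 213 and 1381 ± 121 and of 1474 ± 223 and 1559.9 ± 152, and the log2 fold change was 0.04 for *Ccl6* (limma, adjusted p = 0.94) and 0.09 for *Ccl9* (limma, adjusted p = 0.85). *Ccl6* had intensities of 1571, 1330 and 1146 (Bmal1+/-) against 1295, 1328 and 1519 (Bmal1-/-). *Ccl9* had 1731, 1355 and 1336 (Bmal1+/-) against 1409, 1557 and 1714 (Bmal1-/-). For both, Bmal1+/- replicate 1 was the highest mouse. *Ccl3* and *Ccl5* were at -0.02 and 0.13.

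*Ccl20*, which draws CCR6-bearing Langerhans cell precursors and T cells into epidermis, had intensities of 142, 143 and 189 (Bmal1+/-) against 179, 211 and 206 (Bmal1-/-). Bmal1+/- replicate 3 lay above the lowest Bmal1-/- mouse. The log2 fold change was 0.31 (SE 0.12, 95% interval 0.04 to 0.58, unadjusted p = 0.029, adjusted p = 0.50 from limma). *Ccl26* had 67.1, 82.2 and 92.0 (Bmal1+/-) against 92.1, 108 and 104 (Bmal1-/-), and the highest Bmal1+/- value lay just below the lowest Bmal1-/- value. Its log2 fold change was 0.29 (95% interval 0.02 to 0.56, adjusted p = 0.54 from limma). Over the 14 inflammatory CC ligands, 7 had a positive and 7 a negative log2 fold change.

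Of the 8 inflammatory CXC ligands, 6 had positive log2 fold changes and the median was 0.11, against 0.01 over all probe sets. Under quantile normalization *Cxcl2* turned negative and the median was 0.075. The median was 0.015 without Bmal1+/- replicate 2 and 0.069 without Bmal1-/- replicate 2, with 5 of 8 positive in each. *Cxcl3*, a neutrophil chemoattractant, had intensities of 138, 142 and 138 (Bmal1+/-) against 199.6, 157 and 185 (Bmal1-/-). The Bmal1+/- mice lay close together and below all Bmal1-/- mice. Its log2 fold change was 0.33 (SE 0.10, 95% interval 0.11 to 0.56, unadjusted p = 0.0088, adjusted p = 0.37 from limma). The other CXCR2 ligands were *Cxcl1* at 0.14, *Cxcl2* at 0.05 and *Cxcl5* at 0.26. The neutrophil markers, 8 of 8 measured, summed to 747 to 933 in the Bmal1+/- mice and to 804 to 918 in the Bmal1-/- mice. The CXCR3 ligands that interferon induces differed in sign: *Cxcl9* was at 0.14, *Cxcl11* at 0.08 and *Cxcl10* at -0.11. *Cxcl10* was spread widely within Bmal1-/-, with intensities of 175, 161 and 180.4 (Bmal1+/-) against 107, 244 and 148 (Bmal1-/-). Bmal1-/- replicate 2 was the highest and replicate 1 the lowest of all 6 mice, and without replicate 1 the log2 fold change was 0.14.

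None of the 22 receptors passed the test, where 0.231% of all probe sets did. At that share, 0 calls in 22 receptors says little about them. The 10 CC receptors had log2 fold changes from -0.17 (*Ccr3*) to 0.17 (*Ccr6*). *Ccr2*, the receptor of inflammatory monocytes, had intensities of 603, 597 and 615 (Bmal1+/-) against 484, 575 and 672 (Bmal1-/-). The Bmal1-/- mice were spread around the narrow Bmal1+/- range. The log2 fold change was -0.08 (95% interval -0.31 to 0.16, adjusted p = 0.87 from limma). *Ccr7*, the receptor of CCL19 and CCL21, had intensities of 247, 259 and 352 (Bmal1+/-) against 269, 306 and 284 (Bmal1-/-), means of 286 ± 57.1 and 286 ± 18.7 and a log2 fold change of 0.02 (95% interval -0.26 to 0.29, adjusted p = 0.98). Its values overlapped, with Bmal1+/- replicate 3 the highest mouse. *Ccr10*, the receptor of CCL27, had intensities of 141, 170.0 and 149 (Bmal1+/-) against 151, 179 and 159 (Bmal1-/-) and a log2 fold change of 0.08 (95% interval -0.15 to 0.32, adjusted p = 0.85 from limma). In *Ccr6*, the receptor of CCL20, the genotypes did not overlap, with 72.4, 75.8 and 77.5 (Bmal1+/-) against 81.9, 90.9 and 86.4 (Bmal1-/-), at a log2 fold change of 0.17 (adjusted p = 0.66 from limma).

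The 8 CXC, CX3C and XC receptors all had positive log2 fold changes, with a median of 0.19. Under quantile normalization *Cxcr3* turned negative and the median was 0.15. Without single mice *Cxcr3* or *Cxcr4* turned negative, and the median stayed between 0.13 and 0.23. *Cx3cr1*, carried by patrolling monocytes and tissue macrophages, had intensities of 205, 177 and 169.9 (Bmal1+/-) against 196, 267 and 284 (Bmal1-/-). Bmal1-/- replicate 1 was within the Bmal1+/- range and the other 2 were above it. The log2 fold change was 0.40 (SE 0.13, 95% interval 0.10 to 0.70, unadjusted p = 0.015, adjusted p = 0.43 from limma). In *Cxcr1*, *Cxcr2*, *Cxcr5* and *Xcr1* the genotypes did not overlap, and all Bmal1-/- mice were higher, as in 6.99% of all probe sets. The mean intensities of *Cxcr2* and *Cxcr5*, 46.7 and 28.1, were under 64. Such higher values were found in 1636 of all 23410 probe sets and in 1307 of the 20361 with a mean intensity of 64 or more. The share was thus larger among dimmer probe sets. *Cxcr2*, the main neutrophil receptor, had 41.4, 36.4 and 47.3 (Bmal1+/-) against 48.6, 52.3 and 54.4 (Bmal1-/-), at a log2 fold change of 0.24 (adjusted p = 0.60 from limma). *Cxcr5*, the B cell receptor of CXCL13, was dim, at 24.1, 26.2 and 22.1 (Bmal1+/-) against 29.0, 31.6 and 35.6 (Bmal1-/-), and its log2 fold change was 0.26 (adjusted p = 0.58 from limma). The log2 fold changes of *Cxcr1* and *Xcr1* were 0.20 and 0.17. *Cxcr4* had intensities of 663, 587 and 657 (Bmal1+/-) against 547, 684 and 714 (Bmal1-/-), with the ranges overlapping, and a log2 fold change of 0.02 (95% interval -0.21 to 0.25, adjusted p = 0.97 from limma).

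Of the 4 atypical receptors 3 had negative log2 fold changes, and *Ackr3* had the largest. *Ackr3*, the scavenging receptor of CXCL12 (probe set 10348451), had intensities of 559, 578 and 508 (Bmal1+/-) against 422, 416 and 487 (Bmal1-/-). All Bmal1-/- mice were below all Bmal1+/- mice, with replicate 3 of Bmal1-/- nearest. The means were 548 ± 36.4 and 441 ± 39.4 and the log2 fold change -0.31 (SE 0.08, 95% interval -0.49 to -0.12, unadjusted p = 0.0049, adjusted p = 0.30 from limma). *Ackr4*, which takes up CCL19, CCL21 and CCL25, had intensities of 959, 879 and 1046 (Bmal1+/-) against 845, 961 and 821 (Bmal1-/-), with overlapping ranges and a log2 fold change of -0.13 (95% interval -0.32 to 0.06, adjusted p = 0.69 from limma). *Ackr2*, which clears inflammatory CC ligands, was at -0.15. *Ackr1*, a chemokine receptor of venules and red cells, was at 0.03, with Bmal1+/- replicate 1 at 932 and the other 5 mice between 624 and 763.

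Ligands and receptors known to bind each other are set side by side here, with the log2 fold change of each. *Ccr7* (log2 fold change 0.02) stood beside *Ccl19* at -0.57 and the *Ccl21* probe sets at -0.05. *Ccr10* (0.08) stood beside the *Ccl27* probe sets at 0.37 and *Ccl28* at -0.01. *Cxcr4* (0.02) and *Ackr3* (-0.31) stood beside *Cxcl12* at 0.02, so that of these 3 only the scavenging receptor had non-overlapping values. *Cx3cr1* (0.40) stood beside *Cx3cl1* at -0.03. *Cxcr2* (0.24) stood beside *Cxcl1*, *Cxcl2*, *Cxcl3* and *Cxcl5*, all of which were positive, and *Ccr6* (0.17) beside *Ccl20* at 0.31. Other pairs differed in sign: *Ccr8* (0.07) stood beside *Ccl8* at -0.57 but *Ccl1* at 0.08, and *Cxcr5* (0.26) beside *Cxcl13* at -0.19. *Ccr3* (-0.17) stood beside *Ccl26* at 0.29 but *Ccl11* at -0.10 and *Ccl24* at -0.14. *Ccr4* (-0.06) stood beside *Ccl17* at 0.15 and *Ccl22* at -0.0031. Not all known pairs are given. The pairs are textbook knowledge and were listed after the values had been seen, and no pair was tested.

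**Figure D3:**
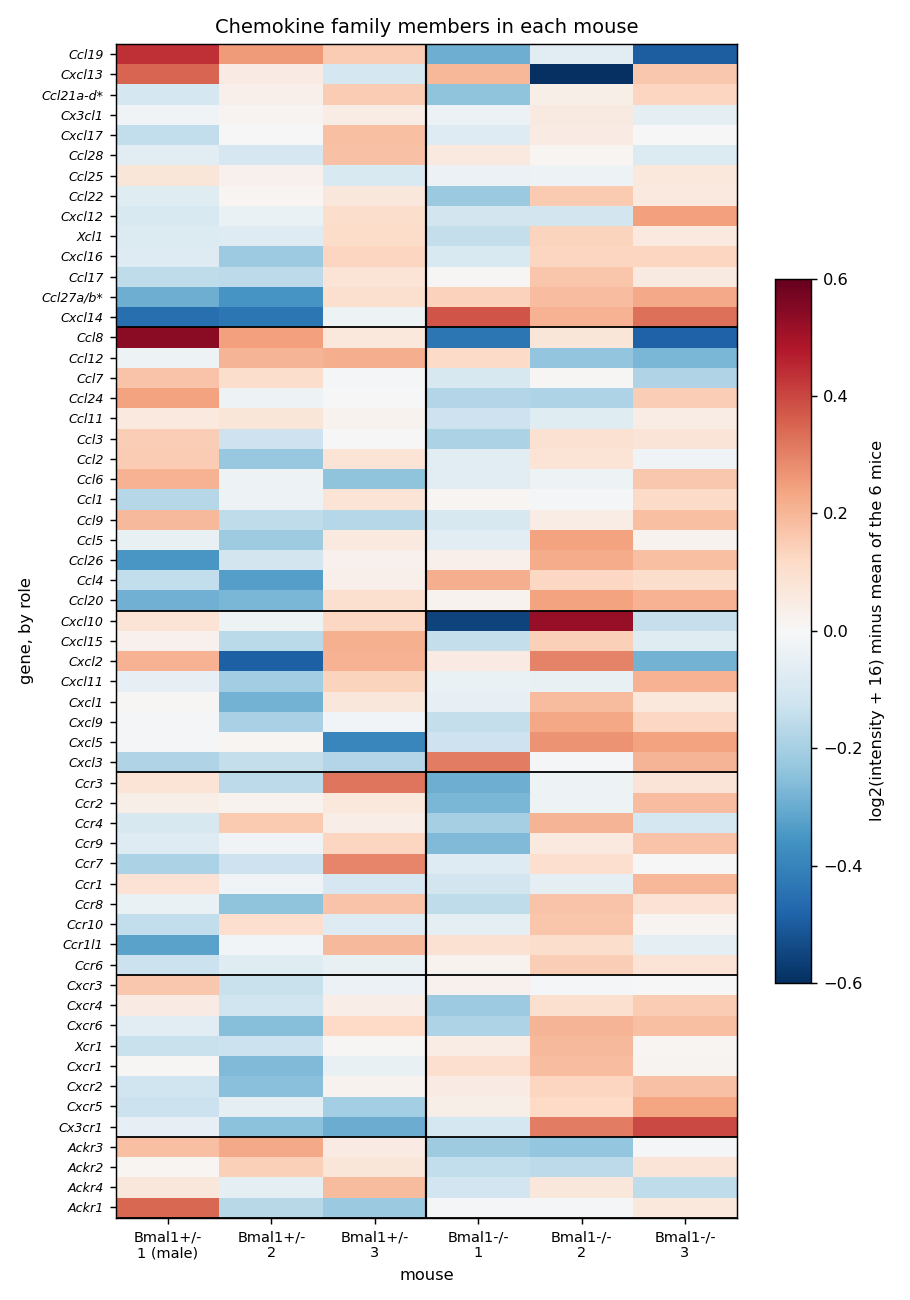
Each of the 58 members (rows, by role and sorted by fold change within it) in each mouse (columns), as log2(intensity + 16) minus the mean of the 6 mice, blue below and red above it. Bmal1-/- replicate 2 is the highest mouse in 20 rows and replicate 1 in 3, and an asterisk marks probe sets that list several genes.

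Single mice differed in how often they stood at the edge of the 6. Bmal1-/- replicate 2 was the highest mouse for 20 of the 58 members (34.5%) and for 14.4% of all probe sets. Bmal1-/- replicate 1 was the highest for 3 (5.17% against 14% of all probe sets) and for none of the 22 receptors, and Bmal1+/- replicate 2 likewise was the highest for 3 and the lowest for 17 (29.3% against 22.6%). Within Bmal1-/-, replicates 2 and 3 were the highest mouse for 7 receptors each.

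**Figure D4:**
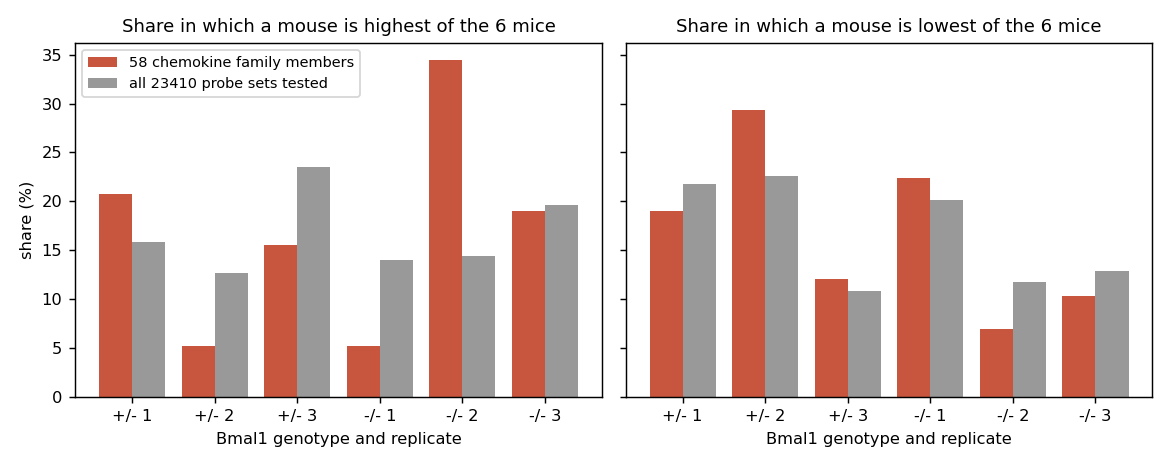
Share of the 58 members (red) and of all 23410 probe sets (grey) in which each mouse had the highest (left) or lowest (right) intensity of the 6, in percent. Bmal1-/- replicate 2 was the highest mouse in 34.5% of members and 14.4% of all probe sets.

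The other genes of the pathway gave no call either, where 0.231% of all probe sets were called. At that share, 0 calls among the members or in pathway or marker lists this short says little about them. Of 34 genes listed for signalling below the receptors, 29 were measured and 0 were called, with a median log2 fold change of -0.04. The largest difference was in *Grk5*, a kinase that shuts off activated receptors, at 0.21 (adjusted p = 0.45 from limma). Of 29 listed cytokines and transcription factors that induce chemokines, 26 were measured and 0 were called. *Nfkbia*, which encodes the inhibitor that holds NF-kB in the cytoplasm, had intensities of 1561, 1526 and 1378 (Bmal1+/-) against 1406, 948 and 1092 (Bmal1-/-), with Bmal1-/- replicate 1 inside the Bmal1+/- range. By limma its log2 fold change was -0.39 (SE 0.12, adjusted p = 0.40). Of 10 proteases and glycan genes, 9 were measured and 0 were called, and *Mmp9*, which trims several CXC ligands, was at 0.35 (adjusted p = 0.39 from limma). Of the markers of 14 cell types 0 were called, with medians per list from -0.14 (fibroblast) to 0.13 (blood endothelium). The T cell sums lay between 2942 and 3286 in the Bmal1+/- mice and between 2690 and 3150 in the Bmal1-/- mice. No marker had all 6 values under 16, the offset used on the log scale.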

How the data were processed

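Dorsal skin RNA of 3 Bmal1-/- and 3 Bmal1+/- mice was hybridized to 6 arrays, and genotypes, replicate numbers and sexes came from the labels. The deposited intensity values are on a linear scale, which the authors made with PLIER 2.0 and Expression Console 1.1 of Affymetrix, as the processing notes of the submitters list them. The sources used here name no background correction, scaling between arrays or genome build. Depth has no meaning for arrays, and their number limits the precision.

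From the deposited values log2(intensity + 16) was computed with no further normalization, which understates the fold change of dim genes. The 23410 of 35557 probe sets with a gene symbol were tested in R 4.3.3 with limma 3.58.1 (lmFit, then eBayes with trend = TRUE) for the difference of Bmal1-/- from Bmal1+/-. Tests were two-sided and p-values were adjusted after Benjamini-Hochberg over all 23410. A gene with several probe sets was counted through its probe set of highest mean intensity. Values in each mouse are given for members with an unadjusted p under 0.05, for the 8 of highest mean intensity, for the 3 largest differences each way at a mean intensity of 64 or more, and for 10 members well known in skin. Some further members are named whose values were chosen after they had been seen. The members, their roles, the 3 pathway lists and the 14 marker lists were chosen with earlier results of these data known, so no list was tested. The procedure was tested on simulated data. The 18 alternative fits changed the offset, scaling, filter, rows, variance model, test, pairing or sex term, or left out 1 array. The Cyber-T type test took its prior variance from 101 neighbours in intensity, at a weight of 10. Promoter windows were taken from RefSeq (GRCm38.p6). Figures were drawn in Python 3.11.15 with matplotlib 3.10.9.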

Additional observations from a re-analysis of the deposited data

How the results depend on the processing

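Of the 21 members chosen by the rule for named genes, 14 kept the sign of their log2 fold change in every alternative fit that tested them (18, or 17 for probe sets that list several genes), *Cxcl14*, *Ccl19*, *Ccl8*, *Ackr3* and the *Ccl27* probe sets among them, and 4 were called in at least 1 fit. Member probe sets called lower numbered 0, and 6 in the Cyber-T type test and 5 at an unadjusted p under 0.001. Those called higher numbered 0, and 1 under median centring, in the Cyber-T type test, at an unadjusted p under 0.001 and at an adjusted p under 0.1. Leaving out 1 mouse gave 0 to 5 called lower (5 without Bmal1-/- replicate 2, where 0.145% of all probe sets were called lower) and 0 to 3 called higher (3 without Bmal1+/- replicate 3, where 0.0897% were called higher). The 5 were all probe sets of *Ccl19*, 2 of them with identical values. The 3 were that of *Cxcl14* and the 2 identical ones of *Ccl27*. Whether the replicate numbers pair the mice cannot be told from 3 mice of each genotype. Deviations of same-numbered mice from their genotype mean had correlations of 0.078, -0.35 and 0.056 across probe sets. Those of mice with different numbers ran from -0.26 to 0.26. A fit with the replicate number as a block called 0 members lower and 0 higher, as the main fit did. Counting members once gave 12 with non-overlapping genotypes in place of 19 probe sets, a choice made after seeing the data. Under quantile normalization Bmal1+/- replicate 2 was highest for 6 members, Bmal1+/- replicate 3 lowest for 12 and Bmal1-/- replicate 1 highest for 5, and under median centring Bmal1+/- replicate 2 was highest for 5. Some log2 fold changes turned sign. With sex as a covariate they were 0.0706 for *Ccl2*, -0.0763 for *Ccr7* and -0.0242 for *Cxcl12*. Without 1 mouse, *Ccl2* ranged from -0.12 to 0.0706, *Ccr7* from -0.0763 to 0.17, *Cxcl12* from -0.10 to 0.0763, *Cxcr4* from -0.0524 to 0.13, *Ccl6* from -0.0692 to 0.16, the *Ccl21* probe sets from -0.13 to 0.0553 and *Ccr2* from -0.19 to 0.0391. The cause of these changes was not tested. Since Bmal1+/- replicate 1 is the only male, the sex covariate and its omission give equal fold changes. With 3 mice of each genotype, differences smaller than the printed intervals could not be resolved, and for 6 of the 58 members, with a mean intensity under 64, fold changes are understated most.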
